A study of Mus musculus with 18 samples.

Results

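The Toll-like receptor family was followed through early blood-forming cells of the mouse, as the 10 genes Tlr1, Tlr2, Tlr3, Tlr4, Tlr5, Tlr6, Tlr7, Tlr8, Tlr9 and Tlr13 among 19505 genes measured on 18 arrays. Members were taken by gene symbol, and each had 1 probe set with that symbol alone, so no choice between probe sets was needed. Tlr11 and Tlr12 also had 1 probe set each but were not among the members. Toll-like receptors are transmembrane proteins that bind conserved microbial molecules. Tlr1, Tlr2, Tlr4, Tlr5 and Tlr6 act at the cell surface on lipopeptides, lipopolysaccharide and flagellin, and Tlr3, Tlr7, Tlr8, Tlr9 and Tlr13 act in endosomes on RNA or DNA. All but Tlr3 signal through the adaptor Myd88, Tlr3 signals through Ticam1, and Tlr4 uses both, ending in NF-kB and interferon regulatory factors. The family is best known from macrophages, dendritic cells and B cells, and some of its members are also known to be expressed in hematopoietic progenitors.

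Cells came from C57Bl/6J mice, either from the fetal liver (FL) of E13.5 embryos or from the bone marrow (BM) of adults aged 3 to 12 months, with no other treatment or allele in the titles, source names and stages. From each source the lineage-negative, Sca-1 and Kit positive fraction was divided by Cd150 and Cd48 into long-term stem cells (LT-HSC), short-term stem cells (ST-HSC) and multipotent progenitors (MPP), with 3 arrays in each of the 6 groups, called a, b and c as in the titles. The sort gates themselves are not given in the labels. Total RNA was amplified from 2 ng with 10 cycles of PCR and hybridised to Affymetrix Clariom S arrays. The free-text descriptions conflict with this: they mention transplanted marrow, sgEzh2 on 4 FL arrays (LT-HSC a, ST-HSC a, MPP a and MPP b) and sgLuc on all others. Groups follow titles, source names and stages, and each receptor call lost without those 4 arrays is given with that receptor. Whether a group's arrays stem from different animals is not labelled, so a p-value reflects only how far these samples spread, which may be technical.

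Over all genes the median log2 signal lay between 7.76 and 7.85 on every array, and pairs of arrays within a group had correlations of 0.960 to 0.994. The spread over genes (interquartile range) was 2.93 to 3.15 on 14 arrays and narrower on 4, namely FL LT-HSC b at 2.67, BM ST-HSC b at 2.59, BM ST-HSC c at 2.62 and BM LT-HSC c at 2.56. The sort markers followed the labels for Kit, at 13.07 to 13.26 in every group mean, for Slamf1 (Cd150), highest in LT-HSC of both sources at 9.31 in FL and 9.66 in BM, and for Cd48, highest in MPP at 12.35 in FL and 12.26 in BM. Cd48 was at 9.58 and 9.98 on BM LT-HSC a and b but at 11.40 on BM LT-HSC c, between those arrays and MPP. That array also stood apart in the family: it was the highest of the 18 arrays for Tlr1, Tlr2, Tlr6, Tlr8, Tlr9 and Tlr13, and it lay more than 1 log2 unit above the mean of BM LT-HSC a and b for 6 of the 10 members, against 2.89% of all genes. Calls of the receptors between BM LT-HSC and another group, and the counts of the pathway lists in LT-HSC, are therefore given with and without it. The Y-linked genes Kdm5d and Uty were at 7.50 ± 0.46 and 7.28 ± 0.30 (SD, n = 9) in FL and at 4.55 ± 0.24 and 3.92 ± 0.12 in BM, with no overlap. Eif2s3y, also Y-linked, was dim in both and overlapped (5.15 ± 0.28 and 4.91 ± 0.23). Source and sex therefore cannot be told apart here. Tlr7, Tlr8 and Tlr13 are X-linked. Over the 798 X-linked genes the median log2 difference between FL and BM was 0.06 in LT-HSC, -0.04 in ST-HSC, 0.03 in MPP and -0.003 on average. Over 18674 autosomal genes it was 0.04, -0.003, 0.04 and 0.01 in the same order. In sorted cells measured in bulk, fewer cells that carry a transcript and less of it per cell cannot be told apart.

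Levels of different probe sets cannot be set against each other, so each gene was placed among the 1091 olfactory receptor genes of the array, used here as a reference for dim probe sets, whose 95th percentile was a log2 signal of 7.01. Tlr2 lay above that level on all 18 arrays, Tlr7 on 16, and Tlr4 and Tlr9 on 13 each. The group means of Tlr7 and of Tlr9 exceeded it everywhere but in FL LT-HSC. Tlr5 exceeded it in MPP and ST-HSC of FL, Tlr3 in BM LT-HSC and BM MPP, and Tlr13 in BM LT-HSC alone. No group mean of Tlr1, Tlr6 or Tlr8 passed it, and Tlr1, Tlr6, Tlr8 and Tlr13 were among the dimmest 30% of genes, so their differences are between dim signals. FL LT-HSC exceeded it for Tlr2 alone. Where the lower of a pair of group means did not exceed it, a fold is written as at least, with each array of the lower group set no lower than 7.01, and where neither mean did, no fold is given. Log2 differences, errors and p-values are those of the measured signals.

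**Figure D1:**
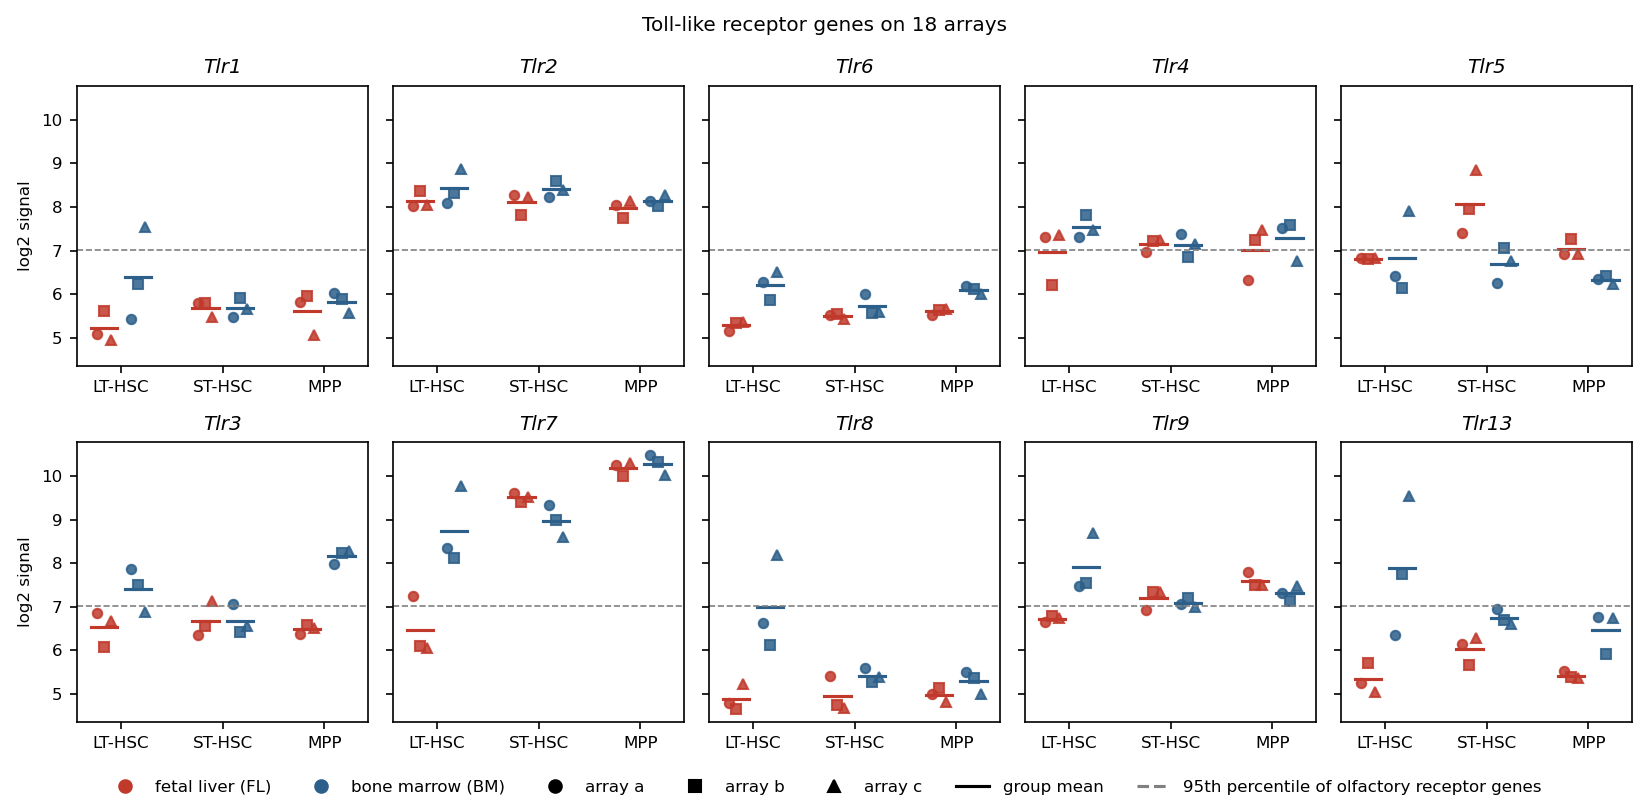
Log2 signal (y axis) of the 10 Toll-like receptor genes on each of the 18 arrays by population (x axis), with fetal liver in red, bone marrow in blue, arrays a, b and c as circles, squares and triangles, group means as bars and the 95th percentile of olfactory receptor genes as a dashed line. Tlr7 rises from LT-HSC to MPP in both sources, Tlr3 is highest in BM MPP, Tlr5 is highest in FL ST-HSC, and BM LT-HSC c is the highest array for Tlr1, Tlr2, Tlr6, Tlr8, Tlr9 and Tlr13.

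FL and BM differed in 6 of the 10 members when the populations were averaged (limma, p adjusted over all genes by Benjamini-Hochberg, called under 0.05, as in every comparison below). Tlr3, Tlr6, Tlr7, Tlr8 and Tlr13 were lower in FL and Tlr5 was higher, in a comparison that called 25.1% of all genes, 9.26% lower and 15.9% higher. The median log2 difference was -0.51 over the members and 0.01 over all genes. In LT-HSC 6 members were lower in FL (Tlr3, Tlr6, Tlr7, Tlr8, Tlr9 and Tlr13) and none was higher, against 4.58% of all genes called lower and 7.66% in all. The median was -1.05 over the members and 0.04 over all genes, or -0.78 and 0.05 without BM LT-HSC c. In ST-HSC the only call was Tlr5, higher in FL (18.7% of genes called, 12.1% higher), and in MPP the only call was Tlr3, lower in FL (5.47% called, 3.55% lower). Tlr6 and Tlr13 were the members whose FL arrays all lay below the BM arrays in each of the 3 populations, a pattern held by 3.02% of all genes. No member lay above in all 3, as 4.35% of genes did. Without BM LT-HSC c the same 6 members were called lower in LT-HSC, with adjusted p from 0.000232 to 0.00512, in a fit that called 5.94% of all genes lower and 8.49% in all. When only the 6 LT-HSC arrays were fitted, without the other groups' estimate of the spread, limma called 372 genes in place of 1495 and none of the members. The adjusted p was 0.0538 for Tlr7, 0.057 for Tlr6, 0.0711 for Tlr8, 0.115 for Tlr9, 0.121 for Tlr13 and 0.234 for Tlr3, and 7 of the 10 had an unadjusted p under 0.05.

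**Figure D2:**
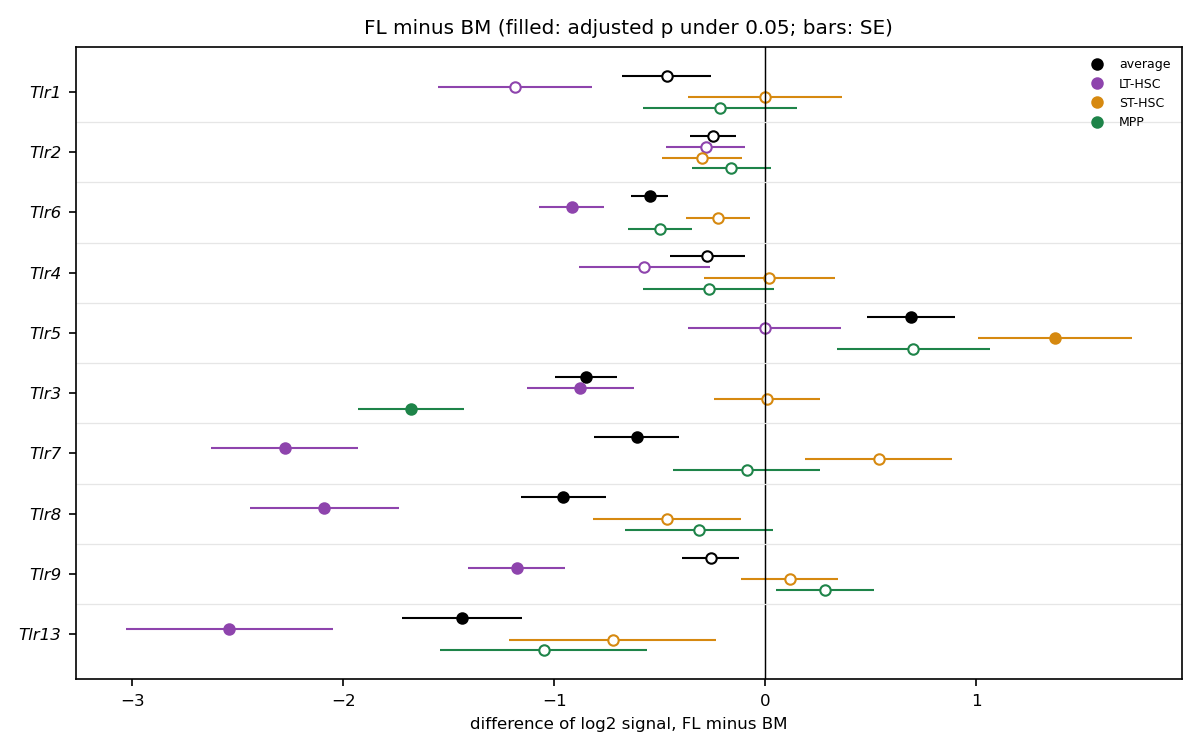
Difference of log2 signal between fetal liver and bone marrow (x axis, FL minus BM) for each gene (y axis), averaged over populations in black and within LT-HSC, ST-HSC and MPP in purple, orange and green, with filled points for adjusted p under 0.05 and bars of 1 SE. In LT-HSC 6 genes are called lower in FL, from -2.54 for Tlr13 to -0.88 for Tlr3, while Tlr5 is called higher in ST-HSC at 1.37.

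Tlr7, an endosomal receptor for single-stranded RNA on the X chromosome (chrX:167303380-167330574, GRCm38.p6), had the widest range of group means in the family. In FL its log2 signal on arrays a, b and c was 7.25, 6.10 and 6.05 in LT-HSC, 9.60, 9.40 and 9.52 in ST-HSC and 10.25, 10.00 and 10.30 in MPP. In BM it was 8.35, 8.11 and 9.78 in LT-HSC, 9.32, 8.98 and 8.61 in ST-HSC and 10.48, 10.33 and 10.01 in MPP. All FL LT-HSC arrays lay below every other array, the MPP arrays of both sources were the highest and overlapped, and BM LT-HSC overlapped BM ST-HSC because of array c. By mean the order was BM MPP at 10.27 ± 0.24 (SD, n = 3), FL MPP at 10.18 ± 0.16, FL ST-HSC at 9.51 ± 0.10, BM ST-HSC at 8.97 ± 0.36, BM LT-HSC at 8.75 ± 0.90 and FL LT-HSC at 6.47 ± 0.68. FL LT-HSC were at least 3.15-fold below BM LT-HSC (log2 difference -2.28 ± 0.35 SE, adjusted p = 0.000314), and at least 2.20-fold below without BM LT-HSC c (-1.76 ± 0.28, adjusted p = 0.000322). The sources did not differ past the threshold in ST-HSC, where the FL arrays were all the higher ones (0.54 ± 0.35, adjusted p = 0.28), or in MPP (-0.09 ± 0.35, adjusted p = 0.959). With array weights Tlr7 was called higher in FL in ST-HSC. The averaged difference was -0.61 ± 0.20 (adjusted p = 0.0332), or -0.44 without BM LT-HSC c (adjusted p = 0.0378), and it missed the threshold when any 1 of 9 arrays was left out: array b of FL MPP, b or c of FL ST-HSC or FL LT-HSC, or a or b of BM ST-HSC or BM MPP (differences -0.61 to -0.54, adjusted p 0.0507 to 0.073). It also missed it without the 4 arrays described as sgEzh2 (-0.72, adjusted p = 0.0663) and with array weights (-0.34, adjusted p = 0.0663).

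Within FL, Tlr7 in LT-HSC was at least 8.51-fold below MPP (-3.71 ± 0.35, adjusted p = 3.18e-06) and at least 5.33-fold below ST-HSC (-3.04 ± 0.35, adjusted p = 0.000149), calls that held under all 30 alternatives tried. FL ST-HSC and FL MPP did not differ past the threshold (-0.67, adjusted p = 0.425), although their arrays did not overlap. That difference was called with only the groups compared in the fit. Within BM, LT-HSC were 2.87-fold below MPP (-1.52 ± 0.35, adjusted p = 0.0159), or 4.10-fold without BM LT-HSC c (-2.04, adjusted p = 9.71e-05). The call was lost without array a or b of either group (adjusted p 0.0676 to 0.0717) or with only the groups compared in the fit (adjusted p = 0.128). BM ST-HSC were 2.46-fold below BM MPP (-1.30 ± 0.35, adjusted p = 0.0338), which was lost without BM ST-HSC b or c or without any 1 of the 3 BM MPP arrays (adjusted p 0.0567 to 0.175). It was also lost after repeated quantile normalization (adjusted p = 0.0921), without the 4 narrow arrays (-0.95, adjusted p = 0.153) and without the 4 arrays described as sgEzh2 (adjusted p = 0.0574). BM LT-HSC and ST-HSC did not differ past the threshold (-0.22, adjusted p = 0.861). The step from ST-HSC to LT-HSC differed between FL and BM (interaction -2.81 ± 0.49, adjusted p = 0.0114). Tlr7 was the only member called in that test, which called 0.379% of genes, 0.328% with a negative value. That interaction was -2.30 without BM LT-HSC c (adjusted p = 0.00381). It missed the threshold without BM ST-HSC c (-2.63, adjusted p = 0.0514), without the 4 narrow arrays (-1.77, adjusted p = 0.0852) or with only the groups compared in the fit (adjusted p = 0.1). The corresponding interaction for LT-HSC against MPP was -2.19 ± 0.49 (adjusted p = 0.0548). It was called without BM LT-HSC c and without FL LT-HSC a. It was also called without the dimmest 30% of genes, with array weights and with trend and robust eBayes.

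Tlr8, the X-linked neighbour of Tlr7 (chrX:167241123-167264329) and likewise a receptor for single-stranded RNA, followed a different order. Its log2 signal in BM was 6.63, 6.13 and 8.19 in LT-HSC, 5.59, 5.27 and 5.39 in ST-HSC and 5.51, 5.37 and 5.01 in MPP. In FL it was 4.80, 4.65 and 5.24 in LT-HSC, 5.41, 4.75 and 4.69 in ST-HSC and 4.99, 5.13 and 4.82 in MPP. The 3 BM LT-HSC arrays were above the other 15, and the remaining groups overlapped their neighbours in the order of means, which ran from 5.42 ± 0.16 (SD, n = 3) in BM ST-HSC to 4.90 ± 0.30 in FL LT-HSC. BM LT-HSC, at 6.99 ± 1.07, were above FL LT-HSC (FL minus BM -2.09 ± 0.35 SE, adjusted p = 0.00077), above BM MPP (1.69 ± 0.35, adjusted p = 0.00809) and above BM ST-HSC (1.57 ± 0.35, adjusted p = 0.0293). Without BM LT-HSC c these differences were -1.49 (adjusted p = 0.000232), 1.09 (adjusted p = 0.00549) and 0.96 (adjusted p = 0.0232). The call against BM MPP was lost without BM MPP c (1.55, adjusted p = 0.05001), and the call against BM ST-HSC without BM ST-HSC b or c (1.49 to 1.56, adjusted p 0.112 to 0.117). The latter was also lost without the 4 narrow arrays (0.79, adjusted p = 0.308) and without the 4 arrays described as sgEzh2 (adjusted p = 0.103). With only the groups compared in the fit, neither passed (adjusted p 0.148 against MPP and 0.487 against ST-HSC). Without the 4 narrow arrays the difference between FL and BM LT-HSC was -1.37 (adjusted p = 0.00186). The difference between FL and BM averaged over populations was -0.96 ± 0.20 (adjusted p = 0.00184), or -0.76 without BM LT-HSC c (adjusted p = 0.000139).

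Tlr13, which recognises bacterial ribosomal RNA in endosomes and is also X-linked (chrX:106143275-106160493), was lower in FL in every population. Its log2 signal was 5.25, 5.71 and 5.05 in FL LT-HSC against 6.35, 7.74 and 9.54 in BM LT-HSC. It was 6.14, 5.66 and 6.28 in FL ST-HSC against 6.96, 6.69 and 6.60 in BM ST-HSC, and 5.53, 5.38 and 5.36 in FL MPP against 6.77, 5.91 and 6.74 in BM MPP. No FL array reached a BM array of its population, and the BM LT-HSC arrays spread over more than 3 log2 units. By mean the order in BM was LT-HSC at 7.88 ± 1.60 (SD, n = 3), ST-HSC at 6.75 ± 0.19 and MPP at 6.47 ± 0.48, followed in FL by ST-HSC at 6.03 ± 0.32, MPP at 5.42 ± 0.09 and LT-HSC at 5.34 ± 0.34. Of the neighbours in this order, FL ST-HSC and FL MPP alone did not overlap. The averaged difference was -1.44 ± 0.28 (SE, adjusted p = 0.00098), and the difference in LT-HSC was -2.54 ± 0.49, or at least 1.82-fold (adjusted p = 0.00254). Without BM LT-HSC c they were -1.16 (adjusted p = 6.31e-05) and -1.71 ± 0.32, or at least 1.02-fold (adjusted p = 0.00185), and without BM LT-HSC a the LT-HSC difference was -3.30. In ST-HSC (-0.72 ± 0.49, adjusted p = 0.302) and MPP (-1.05 ± 0.49, adjusted p = 0.302) the differences did not pass. The MPP difference of Tlr13 was called without BM LT-HSC c and with array weights. With only the groups compared in the fit, Tlr13 was called lower in FL in both ST-HSC and MPP.

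Tlr9, the endosomal receptor for unmethylated CpG DNA (chr9:106222598-106226876), changed little outside LT-HSC. Its log2 signal was 6.66, 6.78 and 6.74 in FL LT-HSC against 7.48, 7.55 and 8.68 in BM LT-HSC. It was 6.92, 7.35 and 7.34 in FL ST-HSC against 7.07, 7.20 and 7.00 in BM ST-HSC, and 7.79, 7.49 and 7.50 in FL MPP against 7.31, 7.13 and 7.49 in BM MPP. FL LT-HSC were below every other array, and BM LT-HSC overlapped FL MPP. FL LT-HSC were at least 1.86-fold below BM LT-HSC (-1.18 ± 0.23 SE, adjusted p = 0.00287; -0.79 ± 0.15 without BM LT-HSC c, adjusted p = 0.0023) and below FL MPP (-0.87 ± 0.23, adjusted p = 0.0457). The second call was lost without any 1 of 13 arrays: those of FL MPP, FL LT-HSC and BM MPP, and arrays b and c of FL ST-HSC and BM ST-HSC (-0.92 to -0.77, adjusted p 0.0554 to 0.2), and without the 4 arrays described as sgEzh2 (-0.74, adjusted p = 0.752), and after repeated quantile normalization (-0.91, adjusted p = 0.057). The interactions of source with LT-HSC against MPP (-1.46 ± 0.33, adjusted p = 0.0518) and against ST-HSC (-1.29 ± 0.33, adjusted p = 0.103) were above the threshold. Leaving out BM LT-HSC c brought both below it, and so did leaving out BM LT-HSC a.

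Tlr3, which binds double-stranded RNA (chr8:45395665-45411075), was highest in BM MPP. There its log2 signal was 7.98, 8.23 and 8.29, against 6.38, 6.58 and 6.50 in FL MPP. It was 7.87, 7.51 and 6.88 in BM LT-HSC, 7.05, 6.42 and 6.57 in BM ST-HSC, 6.87, 6.08 and 6.68 in FL LT-HSC and 6.36, 6.56 and 7.14 in FL ST-HSC. The BM MPP arrays were above all others, BM LT-HSC came next by mean, and the other 4 groups overlapped at means of 6.49 to 6.69. FL MPP were at least 2.22-fold below BM MPP (-1.68 ± 0.25 SE, adjusted p = 0.000297), and BM ST-HSC were at least 2.20-fold below BM MPP (-1.49 ± 0.25, adjusted p = 0.00239), both calls that held under every alternative run. FL was lower on average by -0.85 ± 0.15 (adjusted p = 0.000294). In LT-HSC the difference was -0.88 ± 0.25 (adjusted p = 0.0401), and it was -1.14 without BM LT-HSC c, the array of that group nearest to FL LT-HSC (adjusted p = 0.00512). The call was lost without any 1 of 9 arrays: those of FL MPP, b or c of FL LT-HSC and of BM MPP, and a or b of BM LT-HSC (-0.95 to -0.64, adjusted p 0.0524 to 0.174). It was also lost without the 4 arrays described as sgEzh2 (-1.04, adjusted p = 0.0814), after repeated quantile normalization (-0.85, adjusted p = 0.0705) and with a fixed replicate block (adjusted p = 0.0525). For LT-HSC minus ST-HSC in BM the difference of Tlr3 was 0.74 ± 0.25 (adjusted p = 0.17). Without BM LT-HSC c it was called, with Tlr3 higher in LT-HSC. No other endosomal member was called between FL and BM MPP, apart from Tlr13 under the alternatives named with it.

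Tlr5, the receptor for bacterial flagellin at the cell surface (chr1:182954752-182976044), was the only member called higher in FL in the main fit. Its log2 signal was 7.41, 7.96 and 8.84 in FL ST-HSC against 6.27, 7.06 and 6.76 in BM ST-HSC. In MPP it was 6.91, 7.25 and 6.93 in FL and 6.36, 6.41 and 6.23 in BM. In LT-HSC it was 6.83, 6.80 and 6.83 in FL and 6.42, 6.14 and 7.91 in BM. FL lay above BM in ST-HSC and in MPP, and in LT-HSC BM array c lay above the FL arrays and the other BM arrays below them. FL ST-HSC were at least 2.06-fold above BM ST-HSC (1.37 ± 0.36 SE, adjusted p = 0.0156), a call lost without FL ST-HSC c or BM ST-HSC c (0.99 to 1.41, adjusted p 0.0503 to 0.0788). In MPP the difference was 0.70 ± 0.36 (adjusted p = 0.378), and it was called with array weights or with only the groups compared in the fit. On average FL was higher by 0.69 ± 0.21 (adjusted p = 0.0213) and by 0.87 without BM LT-HSC c (adjusted p = 0.000341). It was 0.77 without the 4 arrays described as sgEzh2, where it missed the threshold (adjusted p = 0.078). Between populations of FL, the difference of Tlr5 was -1.25 for LT-HSC minus ST-HSC (adjusted p = 0.208) and 1.04 for ST-HSC minus MPP (adjusted p = 0.185). Without BM LT-HSC c both were called.

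Among the lipopeptide receptors, Tlr2 pairs with Tlr1 or Tlr6 to bind triacylated or diacylated lipopeptides. Tlr6 (chr5:64953092-64970942) was at 5.17, 5.35 and 5.37 in FL LT-HSC against 6.27, 5.86 and 6.51 in BM LT-HSC. It was at 5.53, 5.55 and 5.43 against 6.01, 5.57 and 5.60 in ST-HSC and at 5.53, 5.64 and 5.66 against 6.19, 6.11 and 6.01 in MPP, so that FL was below BM throughout, by a small margin in ST-HSC. The averaged difference was -0.55 ± 0.09 (adjusted p = 0.000163) and that in LT-HSC -0.92 ± 0.15 (adjusted p = 0.000664; -0.77 without BM LT-HSC c, adjusted p = 0.00255). In MPP it was -0.50 ± 0.15 (adjusted p = 0.0683), and it was called there without BM LT-HSC c, without BM LT-HSC b or without BM ST-HSC a. Tlr6 was also called there after repeated quantile normalization, with array weights and with only the groups compared in the fit. Tlr1 (chr5:64924680-64933600) ranged from 4.95 to 7.55 over the 18 arrays, with 5.42, 6.23 and 7.55 in BM LT-HSC and 5.08, 5.62 and 4.95 in FL LT-HSC. That difference was -1.18 ± 0.37 (adjusted p = 0.0565) and -0.61 without BM LT-HSC c (adjusted p = 0.196). It was called after repeated quantile normalization and with trend and robust eBayes. Tlr2 (chr3:83836272-83841824) stayed between 7.73 and 8.87 on all arrays, its 6 group means lay between 7.98 and 8.43, and every group overlapped its neighbours. It was called in no comparison, and its averaged difference between FL and BM was -0.25 ± 0.11 (adjusted p = 0.112).

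Tlr4, the lipopolysaccharide receptor (chr4:66827551-66846581), showed no called difference in any comparison. It ranged from 6.21 to 7.81 over the 18 arrays, with group means from 6.96 in FL LT-HSC to 7.53 in BM LT-HSC and overlapping neighbours throughout. The averaged difference between FL and BM was -0.27 ± 0.18 (adjusted p = 0.301) and that in LT-HSC -0.57 ± 0.31 (adjusted p = 0.337). In a test of any difference over the 6 groups, which called 24.1% of all genes, Tlr3, Tlr5, Tlr6, Tlr7, Tlr8, Tlr9 and Tlr13 passed and Tlr1, Tlr2 and Tlr4 did not.

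**Figure D3:**
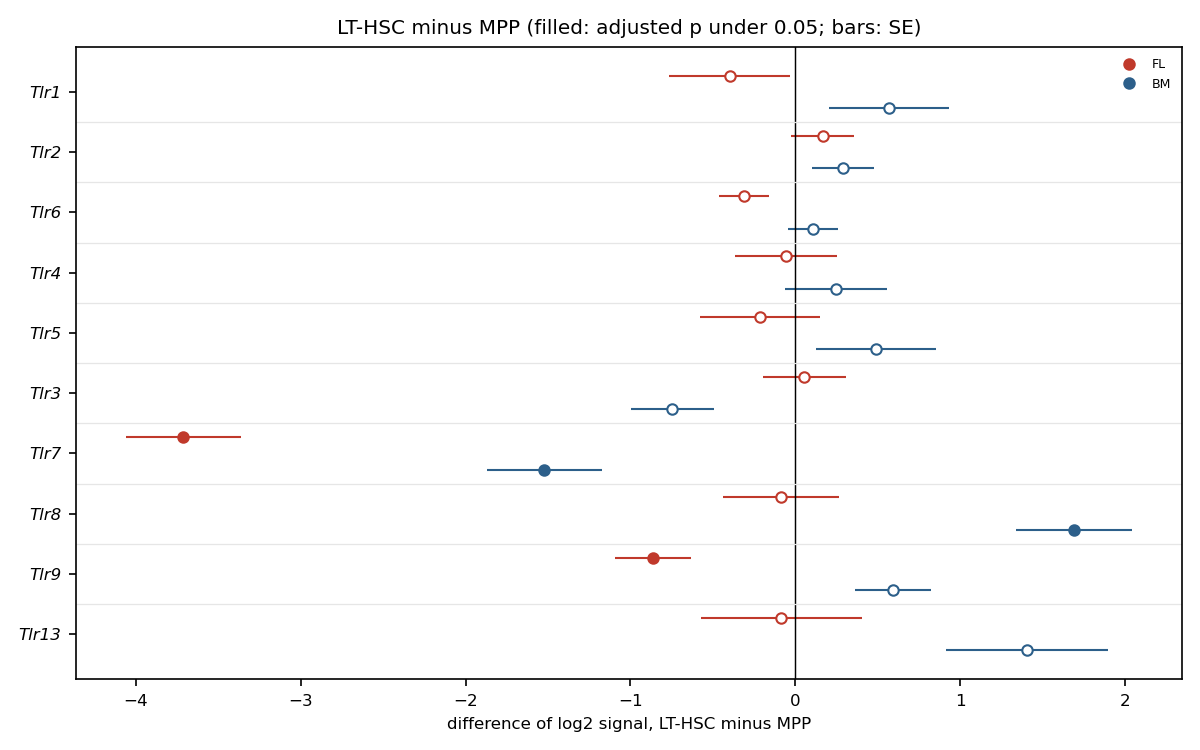
Difference of log2 signal between LT-HSC and MPP (x axis, LT-HSC minus MPP) for each gene (y axis) in fetal liver (red) and bone marrow (blue), with filled points for adjusted p under 0.05 and bars of 1 SE. Tlr7 is lower in LT-HSC in both sources, at -3.71 in FL and -1.52 in BM, Tlr9 is called lower in FL at -0.87, and Tlr8 is called higher in BM at 1.69.

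Between populations, LT-HSC against MPP called Tlr7 and Tlr9 lower in FL (3.4% of genes called, 1.84% lower). In BM it called Tlr7 lower and Tlr8 higher (4.57% of genes called, 2.35% lower and 2.23% higher), as the plot of LT-HSC minus MPP shows. The median difference over the members was -0.15 in FL and 0.39 in BM, or 0.03 in BM without BM LT-HSC c. LT-HSC against ST-HSC called Tlr7 lower in FL (0.559% of genes called, 0.467% lower) and Tlr8 higher in BM (1.71% called, 1.21% higher). Without BM LT-HSC c it called Tlr3 and Tlr8 higher in BM, in a fit that called 4.16% of genes there. ST-HSC against MPP called Tlr3 and Tlr7 lower in BM (6.1% called, 4.79% lower). In FL it called no member (2.26% of genes), and limma gave 1 member an unadjusted p under 0.05. The interaction of source with LT-HSC against MPP called no member (0.543% of genes), with 5 at an unadjusted p under 0.05. Without BM LT-HSC c this interaction called Tlr7 and Tlr9 (1.18% of genes). The F test of all interaction terms called Tlr7 (adjusted p = 0.0148, 0.82% of genes), followed by Tlr9 (0.0574) and Tlr3 (0.0693). Without FL LT-HSC c this F test called no member, and without BM LT-HSC a it called 4 (Tlr3, Tlr7, Tlr9 and Tlr13). The F test also called no member without the 4 arrays described as sgEzh2. For Tlr8, called between populations in BM alone, the interactions had an adjusted p of 0.165 against MPP and 0.202 against ST-HSC, and no interaction of source with ST-HSC against MPP was run on its own.

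Promoter sequence was looked at because several members were lower together in FL LT-HSC. The RefSeq promoter table (GRCm38.p6) held 10 starts of 8 members, and none of Tlr4 or Tlr7. In the 250 bases before each start, both strands were searched for the PU.1 core GAGGAA, the C/EBP motif TTGCNNAA, the AP-1 motif TGANTCA and an interferon-response motif of GAAA, any 2 bases and GAAA. The AP-1 motif reads the same on both strands. GAGGAA was found at 4 of the 10 starts (1 each of Tlr1, Tlr8, Tlr9 and Tlr13) beside 23.25% of 32851 promoters of the same length. TTGCNNAA was found at 3 starts (Tlr3, Tlr6 and Tlr8) beside 9.564%, TGANTCA at 1 start (Tlr9) beside 6.749%, and the interferon-response motif at 1 start (Tlr6) beside 2.977%, where it overlaps itself. The 3 sequences shown were chosen after the matches were seen, as those of members called lower in FL LT-HSC that hold GAGGAA. They read 5′ to 3′ along the gene up to the base before the start, with matches in capitals. For Tlr8 (chrX:167264330-167264579, minus strand) the match on the opposite strand begins 77 bases before the start and a C/EBP match 29 bases before it. For Tlr9 (chr9:106222348-106222597, plus strand) GAGGAA begins 112 bases and an AP-1 match 58 bases before the start, and for Tlr13 (chrX:106143025-106143274, plus strand) GAGGAA begins 83 bases before it. A match is a description of these letters and not a binding site or a cause.
Tlr8: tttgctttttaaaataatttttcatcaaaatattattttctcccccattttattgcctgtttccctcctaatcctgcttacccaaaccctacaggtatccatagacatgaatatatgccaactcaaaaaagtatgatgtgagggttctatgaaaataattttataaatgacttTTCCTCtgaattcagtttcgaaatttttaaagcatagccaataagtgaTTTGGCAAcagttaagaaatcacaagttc
Tlr9: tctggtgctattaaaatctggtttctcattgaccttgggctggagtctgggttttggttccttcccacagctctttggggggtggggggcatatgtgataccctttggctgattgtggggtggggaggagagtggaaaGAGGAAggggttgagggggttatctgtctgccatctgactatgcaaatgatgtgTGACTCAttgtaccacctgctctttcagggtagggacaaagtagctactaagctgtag
Tlr13: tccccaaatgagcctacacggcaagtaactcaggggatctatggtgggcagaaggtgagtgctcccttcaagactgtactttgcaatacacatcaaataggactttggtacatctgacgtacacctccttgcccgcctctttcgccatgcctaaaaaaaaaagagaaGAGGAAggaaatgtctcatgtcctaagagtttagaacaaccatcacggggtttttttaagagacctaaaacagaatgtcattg

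Some pairs of members varied together over arrays and others did not, which is given as a description over 18 arrays of 6 groups that share sources and populations. Tlr8 and Tlr13 had a Pearson r of 0.83, and Tlr1 and Tlr13 of 0.82, which were 0.57 and 0.56 without BM LT-HSC c. Tlr6 and Tlr8 had an r of 0.77 (0.68 without it), and Tlr6 and Tlr3 of 0.65 (0.79). Other pairs were near 0 or negative, such as Tlr7 and Tlr8 at 0.10 (-0.01 without BM LT-HSC c) and Tlr6 and Tlr5 at -0.28 (-0.56). The 3 genes whose pattern over the 18 arrays was most like that of Tlr7 were Cd37, Slc9a9 and Dock10 (r of 0.94, 0.92 and 0.92). For Tlr13 they were B430306N03Rik, Itgb2l and Lyz2 (0.96, 0.94 and 0.93), and for Tlr8 Mme, Mcemp1 and Slc11a1 (0.93 each). Tlr9 was most like Clec5a, Ostf1 and Tyrobp (0.89, 0.87 and 0.87), and Tlr6 most like Mpeg1, Xbp1 and Jaml (0.92 each). For Tlr3 the most alike were Lrmda, Mlkl and Sipa1l1 (0.90, 0.90 and 0.89), and for Tlr5 Gimap4, Apoh and Apobr (0.81, 0.80 and 0.78). The most alike genes were not sought without BM LT-HSC c, the highest array for Tlr6, Tlr8, Tlr9 and Tlr13, so these values may rest on it.

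Proteins that chaperone or process the receptors were followed as lists. Of 10 co-receptors and accessory proteins, 5 were lower in FL on average, 1 was higher and 4 did not pass (median -0.30), beside 9.26% of all genes lower and 25.1% called in all. The lower ones were Ly86, the MD-1 partner of Cd180 (-1.40 ± 0.23, adjusted p = 0.000216), and Cd36, a scavenger receptor that works with Tlr2 (-1.08 ± 0.26, adjusted p = 0.00508). Also lower were Cd14, which hands lipopolysaccharide to Tlr4 (-0.82 ± 0.14, adjusted p = 0.000282), Cd180 (-0.67 ± 0.12, adjusted p = 0.000368) and Unc93b1, which carries the endosomal receptors out of the endoplasmic reticulum (-0.41 ± 0.09, adjusted p = 0.00285). In LT-HSC 4 of the 10 were lower in FL and none higher, beside 4.58% of all genes lower and 7.66% called in all, and without BM LT-HSC c 3 were lower. Ly86 was at 9.85 in BM and 6.74 in FL (-3.12 ± 0.40, adjusted p = 5.26e-05; -2.40 without BM LT-HSC c), and the differences were -1.41 for Cd180 (-1.22 without that array) and -0.79 for Unc93b1 (-0.71 without it). Cd36 was at -1.81 (adjusted p = 0.0183) and at -1.23 without that array, where it missed the threshold (adjusted p = 0.0725). Of the 5 endosomal proteases that cut the receptors' ectodomains, Ctss, Ctsk and Ctsb were lower in FL on average (Ctss -1.83 ± 0.15, adjusted p = 6.02e-08) and Ctss, Ctsk and Lgmn in LT-HSC (Ctss -3.04 ± 0.26, adjusted p = 4.47e-07), with none higher. The same 3 were called in LT-HSC without BM LT-HSC c (Ctss -2.59). Within FL, LT-HSC were below MPP for Ly86 (-3.07), Cd180 (-1.75), Unc93b1 (-0.82) and Ctss (-1.84), as they were for Tlr7 and Tlr9. Of all genes, 1.84% were lower there and 3.4% called. In BM no co-receptor was called between LT-HSC and MPP, which for 10 genes is near the share of all genes called (4.57%). Ly86 was called lower in LT-HSC of BM without BM LT-HSC c (-1.48, adjusted p = 0.000434). The proteases Ctsk (2.00 ± 0.31) and Ctsl (0.63 ± 0.15) were higher in LT-HSC, at 1.66 and 0.61 without that array. For Ctss the interaction of source with LT-HSC against MPP was called (-2.15 ± 0.37, adjusted p = 0.00824); for Unc93b1 it was not (-0.39 ± 0.22, adjusted p = 0.89).

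Downstream of the receptors, 5 of 12 inhibitors and 6 of 13 inducible targets were lower in FL on average, beside 9.26% of all genes lower, 15.9% higher and 25.1% called in all. None of the 5 adaptors passed on average (median -0.11) or in LT-HSC, but 5 genes are too few to set against the share of all genes. Within FL, Ticam2 (-0.90 ± 0.17, adjusted p = 0.00511) and Pik3ap1 (-0.74 ± 0.18, adjusted p = 0.0281) were lower in LT-HSC than in MPP. Of 12 kinases and ubiquitin ligases measured among 16 listed, 2 were higher in FL on average and 4 lower (median 0.05), with Tab2 at 0.59 ± 0.07 and Map3k8 at -0.58 ± 0.09. Of 8 transcription factors measured among 9, 5 were lower and none higher (median -0.31), led by Irf7, a driver of type I interferon (-0.51 ± 0.13, adjusted p = 0.0059). Of 12 inhibitors measured among 13, 5 were lower and 1 higher (median -0.18), led by the phosphatase Dusp1 (-1.99 ± 0.10, adjusted p = 8.58e-11), Tnfaip3 (-1.51 ± 0.17) and Nfkbia (-1.06 ± 0.07), both inhibitors of NF-kB that NF-kB itself induces. Of 13 inducible targets measured among 14, 6 were lower and none higher (median -0.21), led by the chemokine Ccl3 (-2.91 ± 0.10, adjusted p = 4.59e-13), Il1b (-2.72 ± 0.23), Nfkbiz (-2.04 ± 0.15) and Ptgs2 (-2.01 ± 0.15). In LT-HSC 5 targets, 2 inhibitors, 1 transcription factor and 1 kinase were lower in FL, and 1 kinase, Tab2, was higher (0.67 ± 0.12), counts that were the same without BM LT-HSC c. The share of all genes called there was 7.66%, 4.58% lower. The 1 or 2 calls in each of the lists of 12 kinases, 8 transcription factors and 12 inhibitors are too few to set against it. Between LT-HSC and MPP, Ccl3 was lower in LT-HSC of both sources (-2.44 ± 0.17 in FL and -2.60 ± 0.17 in BM), and Il1b was higher in LT-HSC of BM (1.90 ± 0.40, adjusted p = 0.00828), at 1.17 without BM LT-HSC c (adjusted p = 0.00201). In the fit without that array, the targets called between LT-HSC and MPP of FL were Tnf and Ccl3, both lower (5.72% of genes called, 3.05% lower). In BM they were Tnf, Ccl3 and Ccl4, lower, and Il1b, higher (5.67% called, 2.31% lower).

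**Figure D4:**
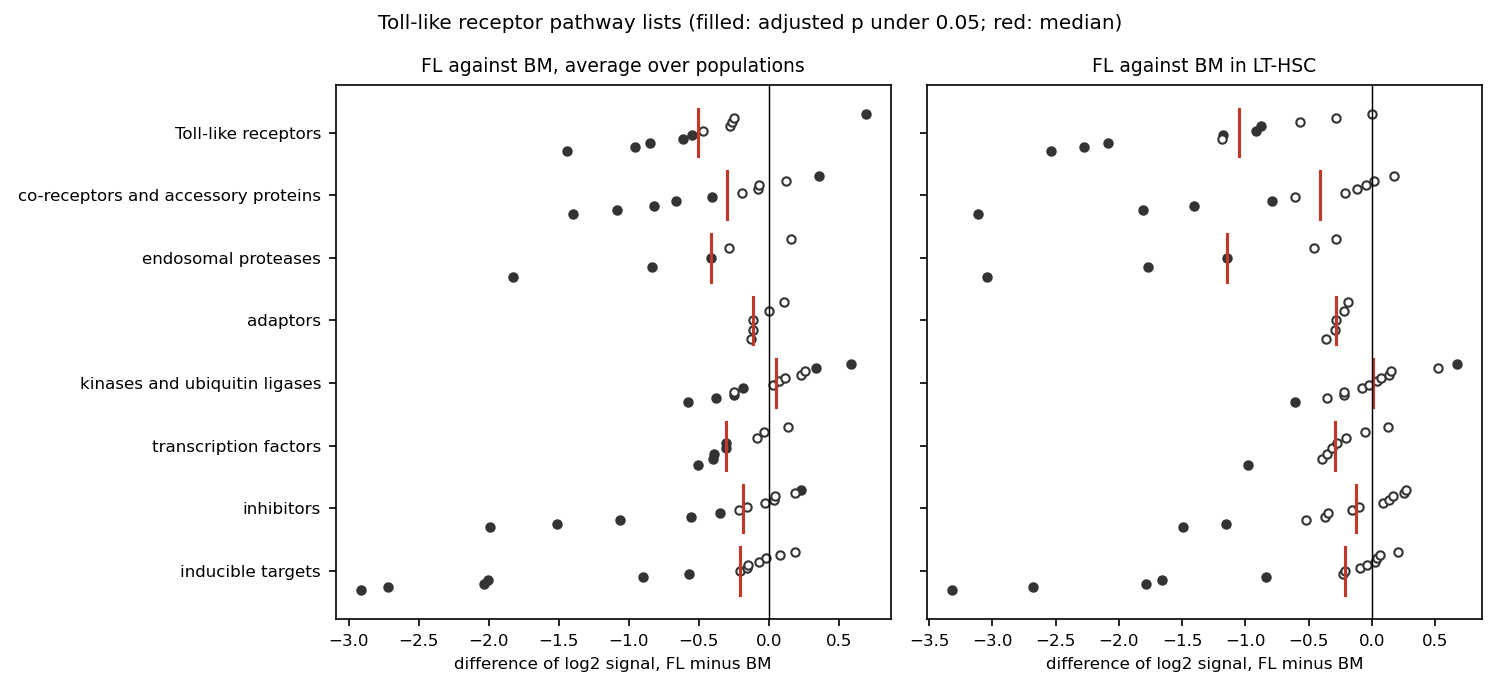
Difference of log2 signal (x axis, FL minus BM) of each measured gene in the Toll-like receptor family and 7 pathway lists (y axis), averaged over populations (left) and in LT-HSC (right), with filled points for adjusted p under 0.05 and the list median as a red bar. The receptors' medians are -0.51 and -1.05, the adaptors' points are all open, and the lowest points on the left are the targets Ccl3 and Il1b.

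Genes of mature myeloid cells moved with several members. The mean log2 signal of 10 macrophage markers, all measured, was 7.30 to 8.25 in BM LT-HSC, 6.97 to 7.08 in BM ST-HSC and 6.81 to 7.11 in BM MPP, and it was 6.28 to 6.61 over all FL arrays. Among its genes C1qa, named after its values were seen, was at 9.35 ± 0.72 (SD, n = 3) in BM LT-HSC and 6.21 ± 0.17 in FL LT-HSC. The gap was narrower for C1qb (8.28 and 7.69), C1qc (7.20 and 6.23), Marco (7.74 and 7.46) and Timd4 (5.73 and 5.55). Over 18 arrays this mean had an r of 0.90 with Tlr13 and 0.91 with Tlr8, or 0.78 and 0.80 without BM LT-HSC c, the array where it was highest. The 7 measured of 8 monocyte markers had a mean of 7.14 to 7.32 in FL LT-HSC and 8.67 to 10.22 in BM LT-HSC. That mean had an r of 0.92 with Tlr6 (0.89 without BM LT-HSC c). Among these genes Fn1 alone was lower in BM LT-HSC (10.57) than in FL LT-HSC (11.08). The mean of 8 neutrophil granule markers was 10.49 to 12.82 in BM and 6.29 to 7.69 in FL. It had an r of 0.78 with Tlr13 (0.81 without BM LT-HSC c), 0.78 with Tlr6 (0.73) and 0.71 with Tlr8 (0.72). The 7 dendritic cell markers had a mean of 6.56 to 6.72 in FL LT-HSC, 6.77 to 7.89 in BM LT-HSC and 7.23 to 7.42 over the MPP arrays of both sources. That mean had an r of 0.75 with Tlr7 (0.86 without BM LT-HSC c) and 0.84 with Tlr9 (0.72). Siglech rose most from FL LT-HSC (6.83) to BM LT-HSC (9.23), while Zbtb46 (8.02 and 7.64) and Xcr1 (5.96 and 5.62) fell. From FL LT-HSC to FL MPP, Ccr9 rose most (6.16 and 9.77), while Zbtb46 (7.79 in FL MPP) and Xcr1 (5.81) fell. The 8 measured of 9 B cell markers were at 7.38 to 7.66 in FL LT-HSC and 8.86 to 9.64 in BM LT-HSC. Their mean had an r of 0.90 with Tlr6 (0.87 without BM LT-HSC c) and 0.73 with Tlr13 (0.61). The 8 hepatocyte markers were at 7.35 to 9.25 in FL and 7.05 to 7.38 in BM, with an r of 0.28 with Tlr5. The part of other cell types in the differences of the receptors was not tested.

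**Figure D5:**
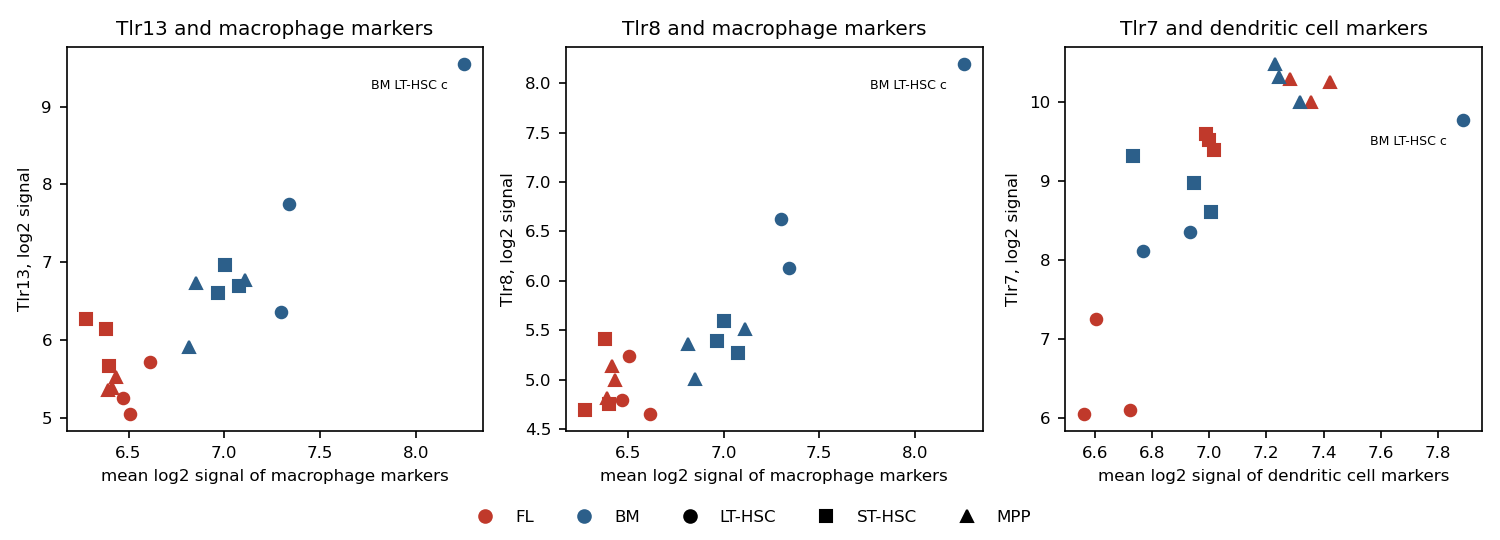
Log2 signal of Tlr13 and Tlr8 (y axes) against the mean log2 signal of macrophage markers, and of Tlr7 against that of dendritic cell markers (x axes), 1 point per array, with fetal liver in red, bone marrow in blue, and circles, squares and triangles for LT-HSC, ST-HSC and MPP. BM LT-HSC c has the highest mean of both marker lists and the highest Tlr13 and Tlr8 signal, while the highest Tlr7 signals are in MPP.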

How the data were processed

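Total RNA of 18 samples was measured on 1 array each. The authors used R 3.5.01 and oligo to make the log2 signals they deposited, per the submitters' processing notes; their background correction and normalization are not named in these sources. Of 22203 probe sets, 19572 carried 1 gene symbol, each found in RefSeq's GRCm38.p6 table; 2631 with several or none were left out and 67 gave way to a brighter probe set of the same gene, leaving 19505 genes. Coordinates are RefSeq gene spans; probe positions were not used here.

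A limma 3.58.1 model (R 4.3.3; lmFit, eBayes) of the 6 group means used all 18 arrays. Adjusted p-values are Benjamini-Hochberg over all genes, called under 0.05. Folds are 2 to the power of log2 differences, bounded as the text says where a group was dim, errors of means are SD and of differences SE, and precision is limited by the number of arrays. The script was tested on simulated data. Alternatives changed the normalization, the filter on dim genes, the probe sets, the weights, the eBayes settings, the arrays fitted and the replicate block. All members were named, with up to 4 called genes per pathway list and the 3 genes most correlated with each member called over the 6 groups. The members and lists were chosen with earlier results of these data known, and the motifs and promoters shown, the fold bounds and the pathway lists without BM LT-HSC c were chosen after the values were seen.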

Additional observations from a re-analysis of the deposited data

Results flagged for a closer look

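Tlr7 was singled out by the test of whether its difference between populations depends on the source. Its step from ST-HSC to LT-HSC differed between FL and BM by -2.81 on the log2 scale (limma, adjusted p = 0.0114), with the 3 FL LT-HSC arrays below all 15 others. That interaction missed the threshold without BM ST-HSC c (-2.63, adjusted p = 0.0514) and with only the groups compared in the fit (adjusted p = 0.1). Without the 4 narrow arrays it was -1.77. The F test of all interaction terms of Tlr7 gave an adjusted p of 0.0148, and it called no member without FL LT-HSC c.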

How the results depend on the processing

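Of 23 called gene differences, 8 held under all alternatives tried, up to 30 each, and none reversed. The number of members called moved by more than 1.5 times as follows. Repeated quantile normalization called 2 for FL against BM in MPP, 1 for FL LT-HSC against FL MPP and 1 for BM ST-HSC against BM MPP. Leaving out the dimmest 30% of genes, which removes Tlr1, Tlr6, Tlr8 and Tlr13, called 3 for the average and 3 in LT-HSC, 1 and 0 for BM LT-HSC against BM MPP and against BM ST-HSC, and 2 each for the interaction of LT-HSC against MPP and the whole interaction. Array weights called 2 in ST-HSC, 4 in MPP, 2 for LT-HSC against ST-HSC and 1 for ST-HSC against MPP in FL, 4 for LT-HSC against ST-HSC in BM, and 3, 5 and 5 for the interactions with MPP, with ST-HSC and as a whole. Trend and robust eBayes called 2 for the interaction with MPP and 2 for the whole interaction. Fitting only the groups compared called 0 in LT-HSC, 2 in ST-HSC, 4 in MPP, 1 for ST-HSC against MPP in FL, and 0 each for LT-HSC against MPP and against ST-HSC in BM and the interaction with ST-HSC. Without the 4 narrow arrays there were 3 in MPP, 2 for LT-HSC against ST-HSC and 1 for ST-HSC against MPP in FL, 0 for LT-HSC against ST-HSC and 1 for ST-HSC against MPP in BM, and 2, 0 and 2 for the interactions with MPP, with ST-HSC and as a whole. Without the sgEzh2 arrays, when FL MPP has 1 array that is assumed to vary like the others, there were 1 for FL LT-HSC against FL MPP, 0 for LT-HSC against ST-HSC and 1 for ST-HSC against MPP in BM, and 0 for the whole interaction. Apart from the loss of genes under the filter, the cause was not tested.

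Leaving out 1 array at a time gave 5 to 8 for the average, 5 to 6 in LT-HSC, 0 to 1 in ST-HSC and 1 to 3 in MPP; in FL 1 to 2 for LT-HSC against MPP, 1 to 2 against ST-HSC and 0 to 1 for ST-HSC against MPP; in BM 1 to 3, 0 to 3 and 1 to 3 in the same order; and 0 to 3, 0 to 3 and 0 to 4 for the interactions. The replicate letters did not pair the arrays: over 18 pairs of the same letter and source r ran from -0.46 to 0.42, and 6 of 18 arrays correlated best with their own letter. A fixed replicate block lowered the count in LT-HSC from 6 to 5 (Tlr3, adjusted p = 0.0525), and the other counts kept their values with a fixed or a random block.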
